A study of Caenorhabditis elegans with 2 samples.

Results

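Below the list of thresholded SPTF-1 peaks lies a group of 1944 weaker genomic regions that both replicates also ranked highly, and their location and neighbouring genes are described here. They are called sub-threshold shared regions. In the authors' pooled list of 30000 regions, ordered by signal value, the strongest regions were the very thresholded peaks, 2419 of them nuclear. The next 5070 regions, down to rank 7500, were the source of the group. Of these, 2 were mitochondrial and 204 overlapped a thresholded peak, which left 4864 nuclear regions. A region was taken if it shared at least 1 base with one of the 7500 strongest regions of replicate 1 and with one of the 7500 strongest regions of replicate 2. That held for 1944 regions, 39.97% of the 4864 and 6.48% of the pooled list. Of the rest, 1520 met a top region of replicate 1 only, 1137 of replicate 2 only and 263 of neither, and these 2920 are called unshared regions. The regions were chosen by signal value, rank and overlap with the replicates, so these are given as a description, with no test. Location, neighbouring genes and sequence were not used in the choice.

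The study mapped the transcription factor SPTF-1 along the genome of Caenorhabditis elegans by chromatin immunoprecipitation and sequencing (ChIP-seq). There was 1 group of 2 biological replicates, and the samples analysed here hold no other genotype, stage or treatment. The worms were of strain OP707, with the genotype unc-119(tm4063) III and the transgene wgIs707, which codes for SPTF-1 with GFP and FLAG at its C-terminus. Whole organisms were used, as embryos of mixed stage and both sexes collected 2.5 h after synchronization by egg bleaching, and the chromatin was broken by sonication. The labels disagree on the antibody, with GFP in the description and sptf-1 in the antibody field. The chromatin came from all embryonic cells together, so a site used in few cells and a site weakly bound in many cannot be told apart. The endogenous sptf-1 gene and the transgene cannot be told apart by sequence in the region lists.

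Sp and KLF proteins are transcription factors with zinc fingers that in mammals bind GC-rich elements, among them the GC box and the related CACC element, often close to the start of genes. The irreproducible discovery rate (IDR) behind the thresholded list is a measure of how well regions keep their order between replicates. A region below such a threshold has not been shown to be unbound. In worms many transcripts are trans-spliced, so that the annotated 5′ end of a transcript, called here the transcription start site (TSS), can lie downstream of the place where transcription begins.

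The sequences at the summits of 9 sub-threshold shared regions, 50 bp to each side, show what these sites look like. The first 6 are from promoters and the last 3 from outside promoters, strongest first, with those that hold a GC box put ahead of those that do not, and with regions on 1 autosome not shown, among them the other promoter window with a GC box. Capitals mark matches, on either strand, to the GC box GGGCGG, the CACC-type word CCNCNCCC, the word GGTTCGA from the B box inside tRNA genes and the word GAGAGA. All are given 5′ to 3′ on the plus strand of ce11 (WBcel235), from the RefSeq genome of that build.
egl-3: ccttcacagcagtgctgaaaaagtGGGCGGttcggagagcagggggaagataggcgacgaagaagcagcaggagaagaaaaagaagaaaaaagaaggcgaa
mlc-2: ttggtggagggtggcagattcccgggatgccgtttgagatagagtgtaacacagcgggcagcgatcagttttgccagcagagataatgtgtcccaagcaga
mcm-2: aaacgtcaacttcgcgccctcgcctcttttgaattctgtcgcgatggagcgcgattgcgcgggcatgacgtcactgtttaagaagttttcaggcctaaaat
F02E11.7: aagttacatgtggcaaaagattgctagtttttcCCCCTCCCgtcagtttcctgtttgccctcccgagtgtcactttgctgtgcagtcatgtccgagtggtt
C37C3.18: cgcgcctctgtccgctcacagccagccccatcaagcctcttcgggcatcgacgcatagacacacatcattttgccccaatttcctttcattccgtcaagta
zfp-1: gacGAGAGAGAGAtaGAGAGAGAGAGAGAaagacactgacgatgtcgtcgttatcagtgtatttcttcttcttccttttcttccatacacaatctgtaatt
unc-60: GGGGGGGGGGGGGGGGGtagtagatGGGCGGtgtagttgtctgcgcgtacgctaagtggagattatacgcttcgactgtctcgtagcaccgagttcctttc
unc-53: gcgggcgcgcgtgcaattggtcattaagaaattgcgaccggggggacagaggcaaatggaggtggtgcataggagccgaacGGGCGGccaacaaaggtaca
rin-1: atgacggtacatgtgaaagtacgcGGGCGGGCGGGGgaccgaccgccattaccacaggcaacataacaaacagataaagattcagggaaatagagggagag

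The GC box was present in 2 of the 25 strongest promoter windows and in 3 of the 25 strongest outside promoters, over the same 50 bp to each side. The stretch at egl-3, which codes for a proprotein convertase that processes neuropeptides, was chrV:10174582-10174682, and its centre lay 879 bp upstream of the TSS. The stretch at mlc-2, a myosin light chain gene, was chrX:17456865-17456965, and that at mcm-2, a subunit of the replicative helicase, was chrII:12006834-12006934. Neither held a match to the 4 words. At unc-60, the gene of the worm's cofilin, the stretch chrV:1473947-1474047 lay between genes, and it opened with a run of G beside a GC box. The stretch at unc-53, which is needed for cell migration and axon outgrowth, was chrII:11063840-11063940 in an intron of that gene, and the one at rin-1 was chrV:14806354-14806454, also in an intron. The stretch at zfp-1, chrIII:8797528-8797628, opened with a GA repeat.

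The sub-threshold shared regions had pooled signal values from 140.8 to 218.7, with a median of 184, on the scale of the authors' caller. The thresholded peaks began at 218.9 and had a median of 299.2, and the unshared regions of the same ranks had a median of 154.8. Pooled regions of ranks above 20000, called low-ranked regions below, had values between 68.43 and 89.33. At the upper edge the strongest sub-threshold shared region, at mlc-2, had 218.7 and the weakest thresholded peak, near the galectin gene lec-10, had 218.9. At the lower edge the last one, 179 bp upstream of C46C11.3, had 140.8, and the first region past rank 7500 that met both replicates, near nep-24, had 140.7. The authors' −log10 q ran from 0.698 to 1.9 in the sub-threshold shared regions. Both edges are therefore choices along a continuous series of values.

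Strong regions were shared more often than weak ones, which the rule itself favours. Of the pooled regions between the last thresholded peak and rank 3500 that were free of thresholded peaks, 843 of 1019 (82.73%) were shared. The share was 57.82% up to rank 4500, 33.65% up to 5500, 16.32% up to 6500 and 7.377% (72 of 976) up to 7500. Most of the group thus lies close under the threshold, with 1394 of its 1944 regions at rank 4500 or better.

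Few sub-threshold shared regions ranked within the number of thresholded peaks in both replicates, which the choice by pooled rank itself favours. A thresholded peak can also stand lower in a replicate, such as the one at rmh-2, with rank 3377 in replicate 1. Ranks in replicate 1 ran from 1218 to 7499 with a median of 4364, and those in replicate 2 from 402 to 7500 with a median of 4359. A rank within the number of thresholded peaks was reached by 173 regions in replicate 1, by 214 in replicate 2 and by 10 in both. These 10, named after their values were seen, included the promoters of dnc-1, which codes for the large subunit of dynactin, C14A11.2, the riboflavin transporter gene rft-2, smex-2, dnj-12 and mtx-1. The regions at dnj-12 and mtx-1 neighbour each other and met the same replicate regions, with ranks 2139 and 2162 in replicates 1 and 2. The best rank in replicate 2, 402, belonged to a region near lgc-26, which stood at 6991 in replicate 1 and at 7353 in the pooled list. Summits of the matching regions in the replicates lay a median of 49 bp apart, and 1403 of 1944 pairs (72.17%) were within 100 bp.

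**Figure D1:**
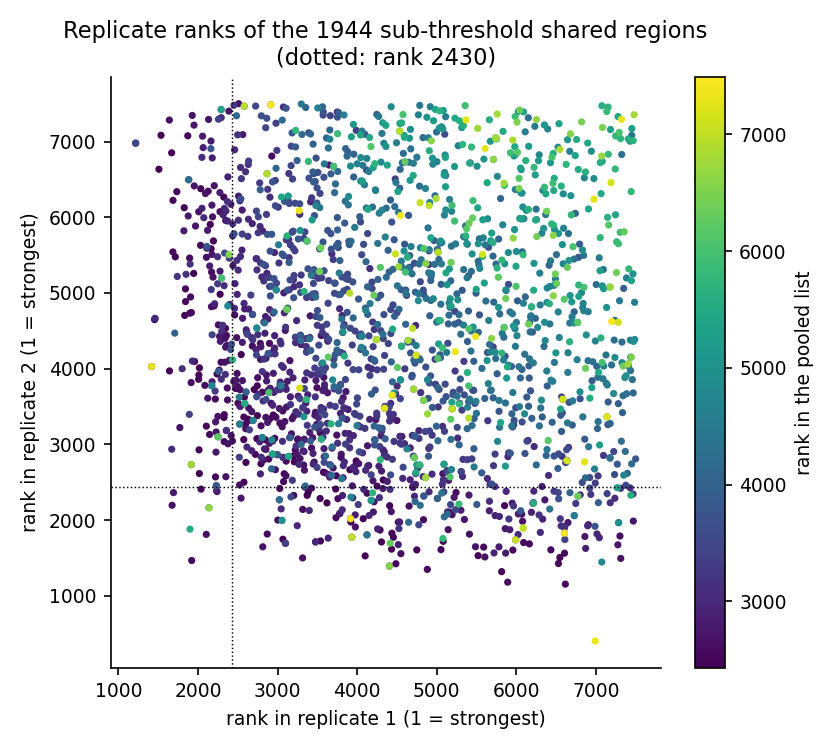
Rank of each of the 1944 sub-threshold shared regions in replicate 1 (horizontal) and replicate 2 (vertical), with 1 as the strongest and colour giving the rank in the pooled list. The dotted lines mark the number of thresholded peaks, most points lie above and to the right of both, and 10 lie below and to the left of both.

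The question for the locations was whether these weaker shared sites sit where the thresholded peaks sit or where low-ranked regions sit. They stood between these sets in promoters, on the X chromosome, on chromosome arms and in GC boxes. Promoter windows covered 1000 bp before and 500 bp after each TSS of a protein-coding gene, and 801 of 1944 summits (41.2%) lay in one. The share was 55.1% (1333 of 2419) for the nuclear thresholded peaks and 33.5% (3354 of 10000) for the low-ranked regions. The sub-threshold shared regions were 13.9 percentage points below the former (95% interval of the difference −16.8 to −10.9, exact test adjusted p = 6.06e-19) and 7.66 points above the latter (5.3 to 10.1, adjusted p = 5.09e-10). Both p-values, like all others in the text, are from two-sided Fisher's exact tests on numbers of regions, adjusted by Benjamini-Hochberg over 42 comparisons, 14 features against 3 sets, of which 28 passed 0.05. Neighbouring regions are not independent and both replicates enter the pooled list, so these p-values can be too small and do not measure replicate error. In each replicate's own list, the regions of the same ranks gave 38% and 40.5%, against 53.2% and 56.1% for the stronger ones and 32.6% and 33.2% for ranks above 20000.

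Sharing between replicates did not come with a detectable difference in promoter share within the same range of ranks, although the shared regions lay nearer its top. The unshared regions had 38.8% of their summits in promoter windows, 2.37 points less than the shared ones (−0.438 to 5.18, adjusted p = 0.131, Fisher's exact test). When only replicate 2 was asked for overlap the difference was 6.23 points (exact test adjusted p = 3.77e-05), and when only replicate 1 was asked it was −3.11 points (adjusted p = 0.0651), so the direction depended on the replicate. By rank, the shared and unshared regions had 42.82% and 47.16% up to rank 3500, 40.83% and 37.31% up to 4500, 40.5% and 36.97% up to 5500, 35.03% and 40.99% up to 6500, and 41.67% and 37.28% up to 7500. Across the pooled list the share fell from 54.64% in the first 2500 regions to 41.35% and 38.56% in the next bins of 2500, and from rank 10001 onward it lay between 32.08% and 34.4%. The median GC content of the 201 bp around the summit moved in the same order, at 46.77% for thresholded peaks, 44.28% for sub-threshold shared, 42.79% for unshared and 38.81% for low-ranked regions. Its part in the location shares was not tested.

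**Figure D2:**
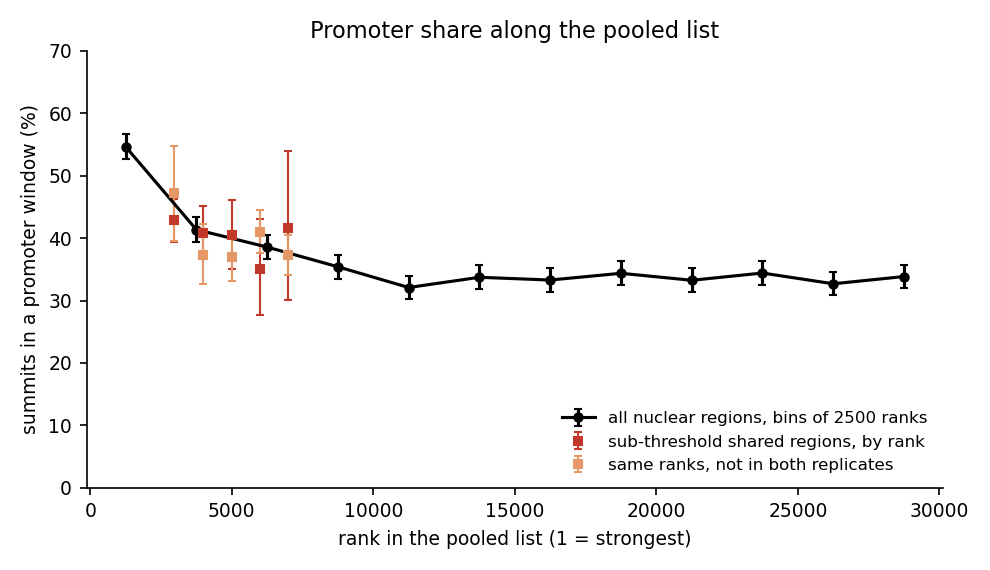
Share of summits in a promoter window (vertical, %) against the rank in the pooled list (horizontal), for all nuclear regions in bins of 2500 ranks (black) and for the shared and unshared regions below the thresholded peaks, with exact 95% intervals that cover the number of regions only. The black line falls from 54.64% to about 33%, and the shared and unshared points overlap in every bin.

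Within promoters the sub-threshold shared summits were less tightly placed just upstream of the TSS than thresholded summits. Of the 801, 591 (73.78%) lay upstream of the nearest TSS and 218 (27.22%) within 200 bp upstream of it. Thresholded promoter summits had 87.1% and 37.58%, and low-ranked ones 60.02% and 17.95%. Windows of genes on both strands, which mark divergent promoters, held 107 of the 801 (13.36%), against 26.93% of thresholded and 8.676% of low-ranked promoter summits. These shares within promoters were not tested. The 200 bp upstream of the TSS held 11.21% of all sub-threshold shared summits, 20.71% of thresholded summits and 6.02% of low-ranked ones.

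**Figure D3:**
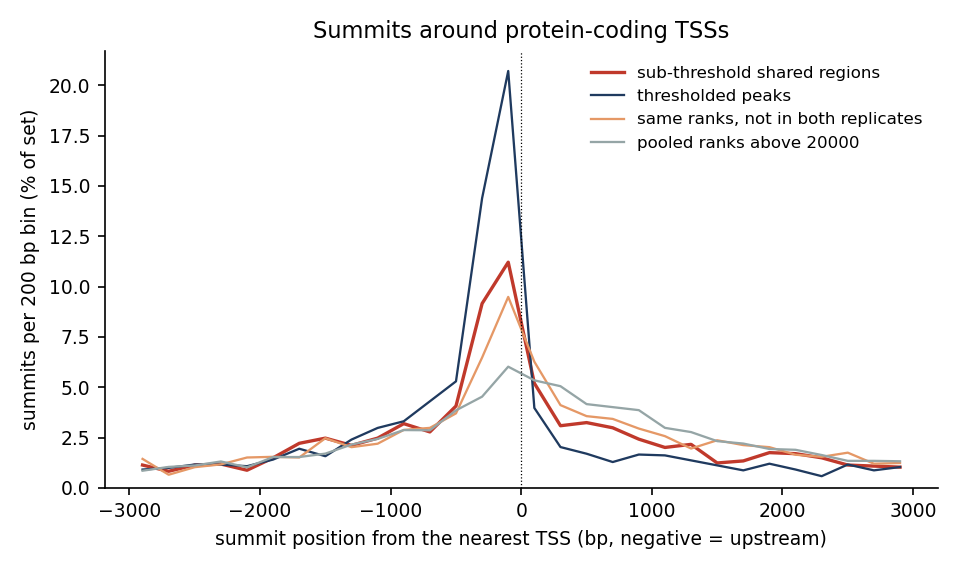
Position of summits relative to the nearest protein-coding TSS (horizontal, bp, upstream negative) as the percentage of each set's summits per 200 bp (vertical). The sub-threshold shared regions peak just upstream of the TSS at 11.21%, between the thresholded peaks at 20.71% and the low-ranked regions at 6.02%.

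Outside promoter windows, 1143 sub-threshold shared summits remained. Coding exons held 120 of them (10.5%), against 3.31% of the thresholded summits outside promoters (adjusted p = 4.59e-11, Fisher's exact test) and 21.1% of the low-ranked ones (adjusted p = 5.48e-18). Introns held 448 (39.2%), against 32.4% of thresholded (exact test adjusted p = 0.00161) and 43.2% of low-ranked summits (adjusted p = 0.0197). The first of these did not hold when summits beside small RNA genes were left out (3.25 points, exact test adjusted p = 0.183), nor the second with ranks up to 4500 only (−3.81 points, adjusted p = 0.0678), with 2000 bp upstream (adjusted p = 0.203) or in the replicate 1 list alone (adjusted p = 0.0711). The space between genes held 423 (37%), more than among low-ranked regions (28%, exact test adjusted p = 3.68e-09), with a difference from thresholded peaks of −1.39 points (−5.41 to 2.63, adjusted p = 0.597). This last difference passed in 4 other settings, at −6.6 points without summits beside small RNA genes (exact test adjusted p = 0.006), −4.29 without replicate 2, and −5.8 and −4.57 in the lists of replicates 1 and 2 alone. Annotated 3′ UTRs held 48 (4.2%), against 1.29% of thresholded (exact test adjusted p = 5.41e-05) and 3.27% of low-ranked summits (adjusted p = 0.142). Non-coding genes other than piRNA genes, together with pseudogenes, held 102 (8.92%), against 24.3% of thresholded (exact test adjusted p = 5.28e-22) and 4.21% of low-ranked summits (adjusted p = 1.32e-09). Without summits beside small RNA genes the difference from thresholded peaks went from −15.4 to −6.47 points (7.98% against 14.5%, exact test adjusted p = 1.34e-05). The introns holding a sub-threshold shared summit were long, with a median of 1396 bp over 447 summits in protein-coding genes, beside 2769 bp for thresholded summits, 1446 bp for unshared ones, 1122 bp for low-ranked ones and 68 bp over all 109051 annotated introns. A long intron offers more positions, and the lengths were not tested.

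**Figure D4:**
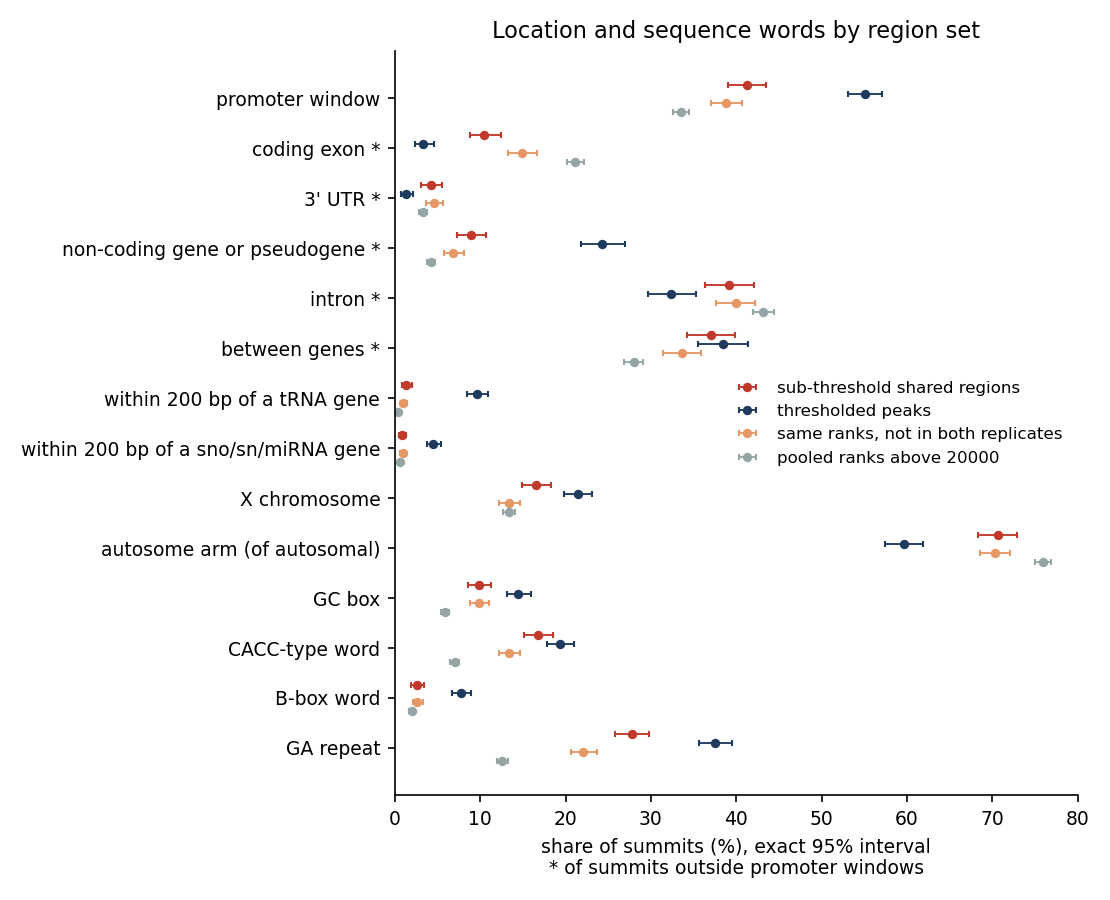
Share of summits (horizontal, %) with each location or sequence word for the 4 sets of regions, with exact 95% intervals that cover the number of regions only; classes marked with a star are shares of the summits outside promoter windows. For the promoter window, coding exon, X chromosome, autosome arm and GC box the sub-threshold shared regions stand between the thresholded peaks and the low-ranked regions.

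Genes of tRNAs, which RNA polymerase III transcribes, carry their promoter elements inside the gene, and they are a frequent place of thresholded SPTF-1 peaks. Sub-threshold shared summits were rarer there. Within 200 bp of a tRNA gene lay 26 of them (1.34%), against 233 thresholded summits (9.63%, adjusted p = 2.3e-34, Fisher's exact test), 29 unshared (0.993%, adjusted p = 0.325) and 32 low-ranked ones (0.32%, adjusted p = 7.44e-07). They lay beside 30 of 612 annotated tRNA genes. The strongest, at chrII:3267746-3268169, had a signal value of 218.2, with 111 in replicate 1 and 106 in replicate 2, and lay in the promoter window of F02E11.7 beside a tRNA gene at 3267989 to 3268070. The next, at chrX:7680806-7681229, lay upstream of stn-2, a syntrophin gene, beside a tRNA gene at 7681040 to 7681111, with values of 217.8 pooled, 106 and 111. Copies of tRNA genes are near-identical, and how reads that fit several copies were treated is not given in the sources used here.

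Genes of snoRNAs, snRNAs and microRNAs had a sub-threshold shared summit within 200 bp in 16 cases (0.823%), against 4.51% of thresholded summits (adjusted p = 7.97e-14, Fisher's exact test) and 0.56% of low-ranked ones (adjusted p = 0.244). Of 261 annotated microRNA genes 6 had one, among them mir-45 on chrII with a signal value of 206 (88.9 in replicate 2) and mir-72 on chrII with regions of 179.3 and 150.4. Both regions at mir-72 met the same replicate regions, with 101 and 69.1. Of 346 snoRNA genes 6 had one and of 129 snRNA genes 4. The microRNA genes were named after their values were seen.

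On the X chromosome lay 322 sub-threshold shared summits (16.6%), fewer by share than thresholded ones (21.5%, adjusted p = 9.9e-05, Fisher's exact test) and more than low-ranked ones (13.4%, adjusted p = 0.000557). The latter difference went from 3.18 to 1.63 points without replicate 2 (exact test adjusted p = 0.0285). X makes up 17.67% of the nuclear genome. Among autosomes, where the outer 30% of the length at each end was counted as arm, 1146 of 1622 summits (70.7%) were on arms, against 59.6% for thresholded (exact test adjusted p = 3.84e-11) and 76% for low-ranked regions (adjusted p = 1.66e-05). Worm autosome arms recombine more and are richer in repeats than the centres, where many housekeeping genes lie. Density was highest on chromosomes III and I, with 25.83 and 25.61 sub-threshold shared regions per Mb, and lowest on V with 13.14. The other sets were also densest on III and I, with 29.89 and 30.85 for thresholded, 40.92 and 39.48 for unshared and 143.5 and 126.3 for low-ranked regions.

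Over all GC contents, words that Sp proteins bind in mammals were less common than in thresholded peaks and more common than in low-ranked regions. Over 100 bp to each side of the summit and both strands, GGGCGG was found in 191 sub-threshold shared windows (9.83%), against 14.5% of thresholded (adjusted p = 8.96e-06, Fisher's exact test) and 5.84% of low-ranked windows (adjusted p = 1.94e-09). The word CCNCNCCC was found in 16.8%, against 19.4% (exact test adjusted p = 0.0451) and 7.01% (adjusted p = 3.77e-37). Its difference from thresholded peaks passed narrowly and did not pass with overlapping regions merged (exact test adjusted p = 0.0784) or against thresholded peaks found in both replicates (adjusted p = 0.0567). It was −2.57 points, −3.68 without replicate 1 and −4.09 without replicate 2. The word GAGAGA was found in 27.8%, against 37.5% (exact test adjusted p = 4.36e-11) and 12.6% (adjusted p = 5.47e-56). The tRNA word GGTTCGA was found in 2.57%, against 7.77% of thresholded windows (exact test adjusted p = 4.37e-14), a difference of 0.00167 points (adjusted p = 1) once summits beside small RNA genes were left out of all sets. Windows of the same length around all 29304 TSS positions held the 4 words in 5.01%, 4.43%, 14% and 1.1%, in the order given here. Runs such as GGGCGGGG can match both of the first 2 words.

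Because GC content differs between the sets, the shares were also read within GC classes, without a test. At 45 to 50% GC, GGGCGG was in 10.2% of 490 sub-threshold shared windows, 10.7% of thresholded and 8.98% of low-ranked windows. For CCNCNCCC the shares in that class were 23.7%, 20.7% and 11.5%, and for GAGAGA 36.3%, 49.4% and 16.9%. At 40 to 45% GC, GGGCGG was in 8.53%, 11.2% and 6.59%. In that class GAGAGA was in 26.4%, 26.3% and 16.7%. At 35 to 40% GC, GGGCGG was in 4.82%, 10.6% and 5.15%, and at 30 to 35% GC in 1.23%, 6.56% and 3.56%. For CCNCNCCC the shares at 50 to 55% GC were 26.5%, 29.6% and 14.7%. The gaps between the sets, and their order, thus varied with the GC class.

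Against the unshared regions of the same ranks, 4 of 14 features passed the test: coding exon outside promoters (10.5% against 14.9%, adjusted p = 0.00114), X chromosome (16.6% against 13.4%, adjusted p = 0.00404), CCNCNCCC (16.8% against 13.4%, adjusted p = 0.00186) and GAGAGA (27.8% against 22.1%, adjusted p = 1.56e-05), all by Fisher's exact test. None of the 4 passed when overlap was asked of replicate 1 only, where the differences were −0.169, 1.23, 1.87 and 2.21 points. None passed either between the 1394 shared and 578 unshared regions of ranks up to 4500, whose signal is more alike, with differences of −3.06, 0.224, 0.958 and 3.34 points. The shared regions are stronger on the whole than the unshared ones, with a median signal of 184 against 154.8.

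Genes were marked by a sub-threshold shared region if a summit fell in one of their promoter windows. That held for 868 of 19973 protein-coding genes, a background of 4.35%, and for 1650 genes, 8.26%, with thresholded peaks. The unshared regions marked 6.29% and the low-ranked regions 15.7%. The lists of genes overlapped in 63 genes, which are 7.26% of the genes with a sub-threshold shared region and 3.82% of those with a thresholded peak. The other 805 genes had no thresholded peak in a promoter window. The rule left out 204 nuclear regions of the rank range that overlap a thresholded peak, which itself lowers this overlap of genes. Summits in windows of more than 1 gene numbered 125 of 801, and 65 genes had at least 2 sub-threshold shared summits.

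The strongest promoter regions of the group, 25 in all, had pooled signals between 216 and 218.7. In replicate 1 the rank was better for 15 of them, and in replicate 2 for 10. At mlc-2, chrX:17456703-17457126, the signal value was 156 in replicate 1 (rank 1510) and 69.5 in replicate 2 (rank 6634), with the summit 329 bp upstream of the TSS. At mcm-2, chrII:12006672-12007095, it was 127 (rank 2504) and 88.2 (rank 3543), 259 bp upstream. The region of rpl-24.1, chrI:4584608-4585031, lay upstream of that ribosomal protein gene and of rps-10, another one, with 138 (rank 2019) and 83.6 (rank 4010). At all of these 3 the rank was better in replicate 1 than in replicate 2.

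Others of the 25 lay at zfp-1, a homologue of the human leukaemia gene AF10 (signal 218.1), etr-1, which codes for an RNA-binding protein (217.9), ptl-1, the worm's tau-like protein gene (217.7), and tig-2, a TGF-β family ligand gene (216.8). Further ones lay at egl-3 (216.6), the phosphatase gene cdc-14 (216.5), rpoa-1, the large subunit of RNA polymerase I (216.4), the nicotinamidase gene pnc-1 (216.4) and hlh-11, a basic helix-loop-helix factor gene (216.2). Of the 25, zfp-1 and cdc-14 (8%) also had a thresholded promoter peak, beside 8.26% of all genes. The rule lowers that share, since it left out regions that overlap a thresholded peak.

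The lists differed in how many of their genes were marked. Of 41 translation factor genes 10 (24.4%) had a sub-threshold shared region, beside 34.1% with a thresholded peak. The strongest were at eif-1, an initiation factor gene (pooled signal 214.6, with 90.1 and 121 in replicates 1 and 2), at eef-1B.1, an elongation factor gene (209.3, with 122 and 120), at ife-2 and ife-3, which code for cap-binding eIF4E proteins (204.9 and 197.3), and at iff-1, an eIF5A gene (189.6). Of 80 cell cycle and replication genes 13 (16.2%) had one, beside 32.5% with a thresholded peak. They included the helicase subunits mcm-2 (218.3) and mcm-7 (215.1), the kinase cdk-7 (198.1) and the origin recognition subunit orc-3 (193.9). Proteasome genes were marked in 4 of 33 cases (12.1%), with pbs-7 at 209.7, and thresholded peaks marked 27.3%. Unshared regions marked 14.6% of translation factor, 15% of cell cycle and replication and 18.2% of proteasome genes, beside 6.29% of all genes. Low-ranked regions marked 22%, 15% and 18.2% of these lists, beside 15.7% of all genes. High shares in these lists were thus not particular to the sub-threshold shared regions. The lists were counted beside the 4.35% of all genes and not tested.

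The ribosomal protein genes differed between the sets of regions. Of 81 cytosolic ones 46 (56.8%) had a thresholded promoter peak and 8 (9.88%) a sub-threshold shared region. None of these 8 had both. Among all genes with a sub-threshold shared region 7.26% had both. The rule left out regions that overlap a thresholded peak, which itself makes both less likely. No conclusion is therefore drawn from none among 8. The 8 included rpl-24.1 and rps-10, which share a region, rpl-30 (206.9), rpl-18 (184.3) and rpl-29 (181.8). Mitochondrial ribosomal protein genes had 5.71% with a sub-threshold shared region and 21.4% with a thresholded peak, and respiratory chain genes 4.76% and 33.3%. Among 31 aminoacyl-tRNA synthetase genes none had a sub-threshold shared region, 5 had a thresholded peak and 8 an unshared region.

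Genes of 2 signalling pathways that act in the early embryo were marked above the share of all genes. In the Wnt pathway, which polarizes divisions in the embryo, 7 of 30 genes (23.3%) had a sub-threshold shared region and 6 (20%) a thresholded peak. The strongest 5 were at wrm-1, a β-catenin gene (signal 196.6), at the Frizzled receptor genes cfz-2 (196.5) and lin-17 (169), at the Nemo-like kinase gene lit-1 (190.7) and at mig-14, which is needed for Wnt secretion (179.1). In the Notch pathway, which mediates contact-dependent cell fate decisions, 5 of 28 genes (17.9%) had one, beside 1 (3.57%) with a thresholded peak, 2 with an unshared region and 3 with a low-ranked one. They were the ligand gene apx-1 (210.2, with 115 and 93.1 in replicates 1 and 2), the presenilin gene sel-12 (201.1, with 121 and 79.2), the γ-secretase subunit gene pen-2 (198.1, with 125 and 86.7), sel-7 (186.2, with 112 and 78.4) and sel-8, a nuclear co-activator of Notch (177.7, with 91.1 and 79.1). Each list is small, so a single gene moves its share by more than 3 points. Wnt genes also stood above the share of all genes with low-ranked regions, at 10 of 30 (33.3%) beside 15.7%. Unshared regions marked 3 Wnt genes (10%), beside 6.29% of all genes.

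Tissue genes were marked unevenly. Low-ranked regions marked 32.2% of pan-neuronal and synaptic genes, 25% of body wall muscle genes and 36.7% of epidermis and junction genes. They marked 38% of embryonic fate regulators and 8.11% of intestine genes, beside 15.7% of all genes. Unshared regions marked 13.6%, 18.3%, 16.3%, 14% and 2.7% of the same lists, in the same order, beside 6.29% of all genes. Of 59 pan-neuronal and synaptic genes 10 (16.9%) had a sub-threshold shared region and as many a thresholded peak, with unc-44, an ankyrin gene, at 214.5, the guanine nucleotide exchange factor gene unc-73 at 196.5 and the vesicle GTPase gene rab-3 at 192.9. Body wall muscle genes were marked in 7 of 60 cases (11.7%), among them mlc-2, the tropomyosin gene lev-11 (209.2), the perlecan gene unc-52 (203.9) and unc-97 (188.5). Epidermis and junction genes were marked in 5 of 49 cases (10.2%), among them the adhesion gene sax-7 (212.4) and the ezrin-related gene erm-1 (191.9). Homeobox genes had 5 of 91 (5.49%), near the share of all genes, with unc-62, a Meis-type gene, at 201 and unc-30 at 175.9. Embryonic fate regulators had 4 of 50 (8%) against 24% with thresholded peaks, with the GATA factor gene elt-1 at 169.3. No gene was marked among 74 intestine, 173 collagen, 43 major sperm protein and 24 apoptosis genes, beside 4.35% of all genes. That share is few genes in the shorter lists. Thresholded peaks marked none of the intestine and sperm protein genes, 8 collagen genes (4.62%) and 1 apoptosis gene (4.17%). Germ line genes (3 of 68, 4.41%) and pharynx genes (1 of 40, 2.5%) were marked near or under the share of all genes by sub-threshold shared regions. Chemoreceptor genes were marked in 4 of 1249 cases (0.32%), and nuclear hormone receptor genes in 8 of 274 (2.92%).

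**Figure D5:**
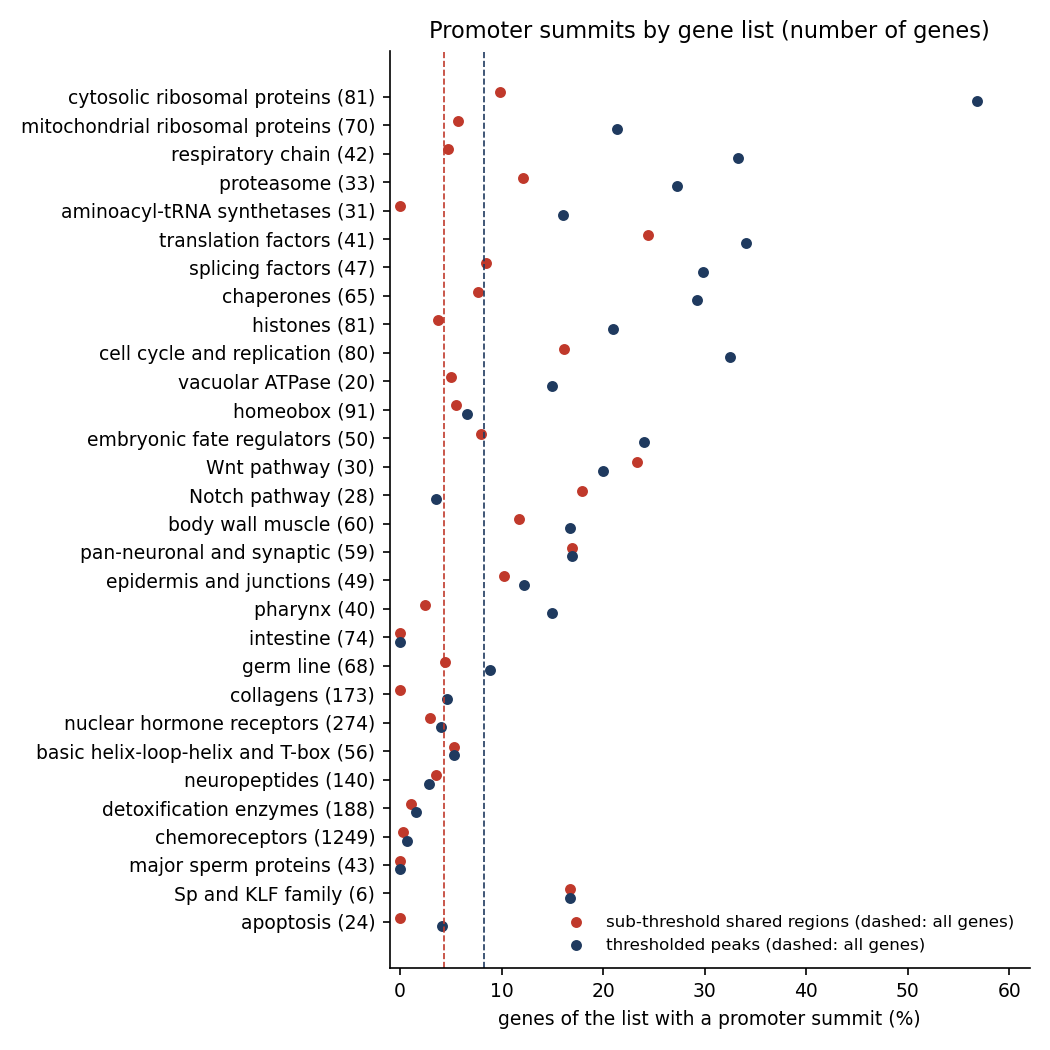
Percentage of the genes of each list (horizontal) with a promoter summit of a sub-threshold shared region or of a thresholded peak, with the number of genes in brackets and dashed lines at the shares of all protein-coding genes, 4.35% and 8.26%. Cytosolic ribosomal protein genes stand at 9.88% and 56.8%, and the Notch pathway at 17.9% and 3.57%.

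Among the genes of the Sp and KLF family, sptf-3 had a sub-threshold shared region in its promoter. It lay at chrI:13366961-13367384, 285 bp upstream of the TSS, with a pooled signal of 182.1 and with 93.2 (rank 5871) and 77 (rank 5032) in replicates 1 and 2. Within 20000 bp of sptf-3 lay 5 such regions, 4 of them in the neighbouring gene wac-1.1 as 2 overlapping pairs, each pair on the same replicate regions. The gene of the factor itself, sptf-1, had 1 within 20000 bp, 2441 bp upstream of its start at chrI:10363968-10364391, with 196.8 pooled and 109 and 93.9 in the replicates, beside 5 thresholded peaks. Around klf-2 lay 3, around klf-1 and klf-3 1 each and around sptf-2 none, where the nuclear genome held 0.194 per 10 kb. Thresholded peaks within the same distance numbered 4 at sptf-3, 3 at klf-2, 1 at klf-1 and none at klf-3 and sptf-2. The marker gene of the strain, unc-119, had 1 sub-threshold shared region and no thresholded peak within that distance.

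Some long genes, picked out after their values were seen, held several sub-threshold shared regions. A long gene offers more positions, and the numbers per gene were not tested. Of 840 protein-coding genes with at least 1 in their body, 105 held 2, 26 held 3, 7 held 4, 2 held 5 and 1 held 7. That gene was hmr-1, which codes for a classical cadherin and spans 58913 bp, and its 7 regions, all in introns, had signals from 142.2 to 212.1. Its density was 1.19 per 10 kb, beside 0.194 over the nuclear genome, and 6 thresholded peaks and 10 unshared regions lay in the same gene. The kinase gene mbk-2 held 5 with signals from 169 to 214.9 and a density of 1.87 per 10 kb. Shorter genes reached higher densities, such as Y22D7AL.11, which spans 3590 bp and held 3 regions at 8.36 per 10 kb. Some neighbours within a gene, among them regions of hmr-1, met the same replicate regions. Merging overlapping regions reduced the 1944 to 1851 loci.

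Few sub-threshold shared summits lay close to a thresholded summit. Of all, 79 (4.064%) lay within 1000 bp of a thresholded summit, 268 (13.79%) within 2000 bp and 645 (33.18%) within 5000 bp. The unshared regions had 3.425%, 12.47% and 29.73%, and low-ranked regions 4.85%, 11.64% and 27.12%. These distances were not tested. The rule removed shared and unshared regions that overlap a thresholded peak, so their pairs closer than a region's width are left out by construction. Low-ranked regions were not filtered in this way, so their shares are not like for like with the others, above all within 1000 bp.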

How the data were processed

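Each replicate had a deposited list of 30000 regions, with a pooled list and a thresholded list, on ce10 and ce11. Per the deposited file listings, regions were called from alignments with a control and the thresholded list was the optimal IDR set. Read depth, aligner, caller and the cutoff of the IDR step are not given in the sources used here. The signal values and −log10 q values are those of the authors' caller, and lists are not on one scale, so replicates were compared by rank. Values computed here came from the ce11 lists, Ensembl release 115 genes and the RefSeq genome of WBcel235. The last region of each nuclear chromosome ended within the reference length.

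Location classes outside promoters were taken in the order coding exon, UTR, non-coding gene or pseudogene, intron, between genes. Shares have exact (Clopper-Pearson) 95% intervals and differences Newcombe intervals, which cover numbers of regions only. The named genes are those nearest the 25 strongest promoter regions, up to 5 per list (in the text, for selected lists), the Sp and KLF family with unc-119, and the regions at the ends of the rank range. The regions and the 30 gene lists were chosen with earlier results of these data known. The tests were tried on simulated counts drawn independently, which cannot show how dependence between neighbouring regions affects the p-values. Python 3.11.15, NumPy 2.4.6, SciPy 1.17.1, statsmodels 0.14.6 and matplotlib 3.10.9 were used.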

Additional observations from a re-analysis of the deposited data

How the results depend on the processing

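The number of regions follows the rule: it was 760 with the top 5000 and 3049 with the top 10000 of each replicate, 3081 without replicate 1 and 3464 without replicate 2. Genes marked numbered 1417 and 1429 in these last settings, against 868. The promoter share was 32.2% with 500 bp and 54.5% with 2000 bp upstream, 38% in the replicate 1 list alone, and 38.9% to 42.1% without a replicate. The GC box share was 5.35% and 13% with 50 and 150 bp to each side. The ce10 lists gave 1966 regions.

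Of 28 calls, 20 kept their direction and side of the threshold in every setting in which they were tested. These were 10 of 13 against thresholded peaks, 10 of 11 against low-ranked regions and none of the 4 against unshared regions. The differences were not tested with other replicate rank limits, other overlap rules, the ce10 lists or other word windows. Between 24 and 32 of 42 comparisons passed in the settings that kept all of them, 24 of 36 without summits at small RNA genes and 26 of 28 in each replicate list alone. For differences from unshared regions, in points, that turned direction when overlap was asked of 1 replicate, the values without replicate 1 and without replicate 2 were 6.23 and −3.11 for promoter, 0.972 and −1.53 for 3′ UTR, −2.37 and 3.04 for intron, 5.87 and −3.09 for between genes, −0.287 and 0.238 for small RNA genes, −4.67 and 5.67 for autosome arm, −0.358 and 0.116 for GGGCGG and −0.836 and 0.457 for GGTTCGA. Intron gave 0.414 with 2000 bp upstream. Merging gave −0.0498 for autosome arm and 0.142 for GGGCGG. Against thresholded peaks, between genes gave 0.0923 with ranks up to 4500 and GGTTCGA 0.00167 without summits at small RNA genes, and against low-ranked regions GGTTCGA then gave −0.163. The replicate lists alone gave −0.256 and −0.347 for 3′ UTR against ranks above 20000. The cause of these changes was not tested. The settings with ranks up to 4500, merged regions in all sets, replicate lists alone and no small RNA genes were chosen after seeing the data, and the last left no tRNA or small RNA feature to compare. No paired analysis was possible because there was 1 group. Read depth is unknown, so no limit from it can be given.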
